A study of Homo sapiens with 6 samples.

Results

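The COPII coat and collagen-export genes described here are SAR1A, SAR1B, MIA3, SEC23A, SEC23B, SEC24A, SEC24B, SEC24C, SEC24D and SEC31A, 10 of the 19775 genes that have a probe set annotated to them alone on the array. They were chosen by name with their measured differences between the 2 groups of arrays already known, so every such difference below is a description and supports nothing beyond itself. The 10 genes were read by 27 of the 54675 probe sets, none of which was annotated to a further gene. HEK293 is a line derived from human embryonic kidney. Cells were transfected with a control siRNA (3 arrays) or with an siRNA against BAHD1, a chromatin protein that takes part in gene silencing (3 arrays), and total RNA was taken after 72 h in both groups. Both groups are this single cell line and carry the transfection reagent as well. In such RNA, fewer cells of a kind and less transcript per cell cannot be told apart. The labels name replicates as biological without saying what separated the cultures.

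Proteins made in the endoplasmic reticulum leave it in vesicles formed by the COPII coat. The small GTPase SAR1, encoded by SAR1A and SAR1B, inserts into the membrane when loaded with GTP and recruits the inner coat of SEC23, which stimulates GTP hydrolysis, and SEC24, which binds cargo. SEC31, together with SEC13, forms the outer cage. Procollagen is too long for an ordinary vesicle, and MIA3, also called TANGO1, is a transmembrane protein of the exit site that binds this cargo on the lumenal side and SEC23 on the cytosolic side. Mutations of SAR1B are known from a disorder of chylomicron secretion, those of SEC23A from a skeletal disorder and those of SEC23B from an anaemia of red cell precursors.

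The gene regions just before the annotated start are shown for the members around which the values turn: the paralogues SAR1A, whose 3 probe sets fell, and SAR1B, of whose 5 probe sets 2 rose, MIA3, whose tested probe sets all fell, and SEC24A, the protein-coding gene next to SAR1B in the RefSeq gene order. Each is the 250 bases before the RefSeq start, 5′ to 3′ on the gene's strand, build GRCh38.p14. The windows are chr10:70170515-70170764 (minus strand) for SAR1A, chr5:134632829-134633078 (minus strand) for SAR1B, chr1:222644079-222644328 (plus strand) for MIA3 and chr5:134648535-134648784 (plus strand) for SEC24A. Capitals mark matches on either strand to the motif GGGCGG, the motif CCAAT, the motif CCACG and the motif TGACGTGG, and matches may overlap.
SAR1A: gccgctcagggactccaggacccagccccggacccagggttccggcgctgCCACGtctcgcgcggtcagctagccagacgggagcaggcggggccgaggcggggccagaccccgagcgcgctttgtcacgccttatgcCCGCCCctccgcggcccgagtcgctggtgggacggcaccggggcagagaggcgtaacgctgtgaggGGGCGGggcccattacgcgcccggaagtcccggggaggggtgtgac
SAR1B: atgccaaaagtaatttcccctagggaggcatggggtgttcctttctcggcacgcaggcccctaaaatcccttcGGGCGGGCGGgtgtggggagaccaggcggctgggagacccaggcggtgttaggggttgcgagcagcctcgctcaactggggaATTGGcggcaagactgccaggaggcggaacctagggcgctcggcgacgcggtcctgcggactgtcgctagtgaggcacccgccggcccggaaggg
MIA3: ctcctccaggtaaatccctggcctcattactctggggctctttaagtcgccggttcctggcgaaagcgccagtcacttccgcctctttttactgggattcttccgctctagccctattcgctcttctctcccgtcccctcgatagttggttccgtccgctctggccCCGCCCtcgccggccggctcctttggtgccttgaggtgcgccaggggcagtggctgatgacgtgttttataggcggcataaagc
SEC24A: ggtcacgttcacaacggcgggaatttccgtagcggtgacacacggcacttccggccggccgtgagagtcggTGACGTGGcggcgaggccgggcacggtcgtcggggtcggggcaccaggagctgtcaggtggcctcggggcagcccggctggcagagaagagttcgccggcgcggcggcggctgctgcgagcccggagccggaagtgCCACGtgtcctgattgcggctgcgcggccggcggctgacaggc

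GGGCGG, the core of the GC box, was matched 2 times in the SAR1A window, 2 times in that of SAR1B and 1 time in that of MIA3, and it occurred in 42.6% of 35093 RefSeq windows of this length. The motif TGACGTGG, to which factors of the unfolded protein response are known to bind, was found in the SEC24A window, where a CCACG match lies within it on the other strand. Of all windows 0.613% held that motif. The 9 members in the promoter table had 13 windows, and among these only that of SEC24A held it. CCACG was present in the SAR1A and SEC24A windows and in 33.5% of all windows, and CCAAT in the SAR1B window and in 11229 of all 35093. The full ER stress element, CCAAT and CCACG with 9 bases between them, matched in no window of the 9 members found in the promoter table and in 0.0741% of all windows. The shares of G and C were 74.8% for SAR1A, 66.4% for SAR1B, 59.6% for MIA3 and 72.8% for SEC24A, against a median of 58% over all windows. These are letter matches, and binding was not measured.

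The array table gives a signal on a linear scale for each probe set and array, and differences are given as log2 fold changes of log2(signal + 1), BAHD1 siRNA over control siRNA. A probe set was tested if its signal exceeded 17.9 on at least 3 arrays, a level that splits all non-control signals into equal parts, which held for 27458 probe sets. The words rose and fell are used of probe sets with an adjusted p under 0.05 in limma's fit with a variance prior that follows the signal. In that fit 2.17% of all tested probe sets rose and 2.28% fell. A fit with a single prior, which also dropped the robust estimation used in the first fit, called 0%. Even so, 4843 of its probe sets had an unadjusted p under 0.05. Array medians ran from 15.9 to 19.5. The BAHD1 transcript itself, read by 1 probe set, had signals of 62.9, 55.7 and 46.7 in control arrays and 36.6, 46.8 and 41.2 in BAHD1 siRNA arrays. Its log2 fold change was -0.40 ± 0.19 (SE, 3 arrays per group), which did not pass (limma, adjusted p = 0.251; exact two-sided permutation p = 0.2, and 3 arrays against 3 cannot give less than 0.1). All 6 markers named for HEK293 cells, among them VIM and NEFL, were above the filter signal on all 6 arrays, and their summed signal was 5262.9 to 5653.2 in control and 4909.1 to 5214.2 in BAHD1 siRNA arrays, without overlap. The summed signal of 3 leukocyte markers was 5.5 to 32.5 in control and 13.6 to 37.7 in BAHD1 siRNA arrays, that of 3 hepatocyte markers 14.4 to 26.1 and 11.3 to 32.5, and that of 3 fibroblast markers 18.8 to 33.4 and 20.7 to 37.0. PTPRC, LYZ, ALB, APOA1, TTR, LUM and PDGFRB were under the filter signal on every array. The 24 probe sets of poly-A control RNAs were all higher in BAHD1 siRNA arrays, with a median log2 difference of 0.58. The ratio of 3′ to 5′ signal of GAPDH was 0.926 to 0.955 in control and 0.956 to 0.966 in BAHD1 siRNA arrays. That of ACTB was 1.47 to 1.54 in control and 1.49 to 1.67 in BAHD1 siRNA arrays, with overlap. The part of these differences in the values below was not tested.

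Of the 27 probe sets of the members, 24 were tested. In them 3 probe sets rose, in SAR1B and SEC24A, and 7 fell, in SAR1A, MIA3 and SEC23B, while 14 were not called. Of all tested probe sets 2.17% rose and 2.28% fell. No member had both a rise and a fall. For 5 members, SEC23A, SEC24B, SEC24C, SEC24D and SEC31A, no probe set was called. The groups did not overlap in 16 of the 24, against 25.6% of all tested probe sets. As the members were named with this contrast known, nothing is read from these counts. Of the 24, 7 were higher and 17 lower, and the median log2 fold change was -0.11, against 0.01 over all tested probe sets. The fit with a single prior called none of the 24. It gave 13 of them an unadjusted p under 0.05, against 4843 of all 27458 tested probe sets. The 10 called member probe sets had adjusted p from 0.112 to 0.181 in that fit. The probe set just inside the threshold was 201583_s_at of SEC23B (limma, adjusted p = 0.0333), and the nearest outside it was 202798_at of SEC24B (adjusted p = 0.0509).

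**Figure D1:**
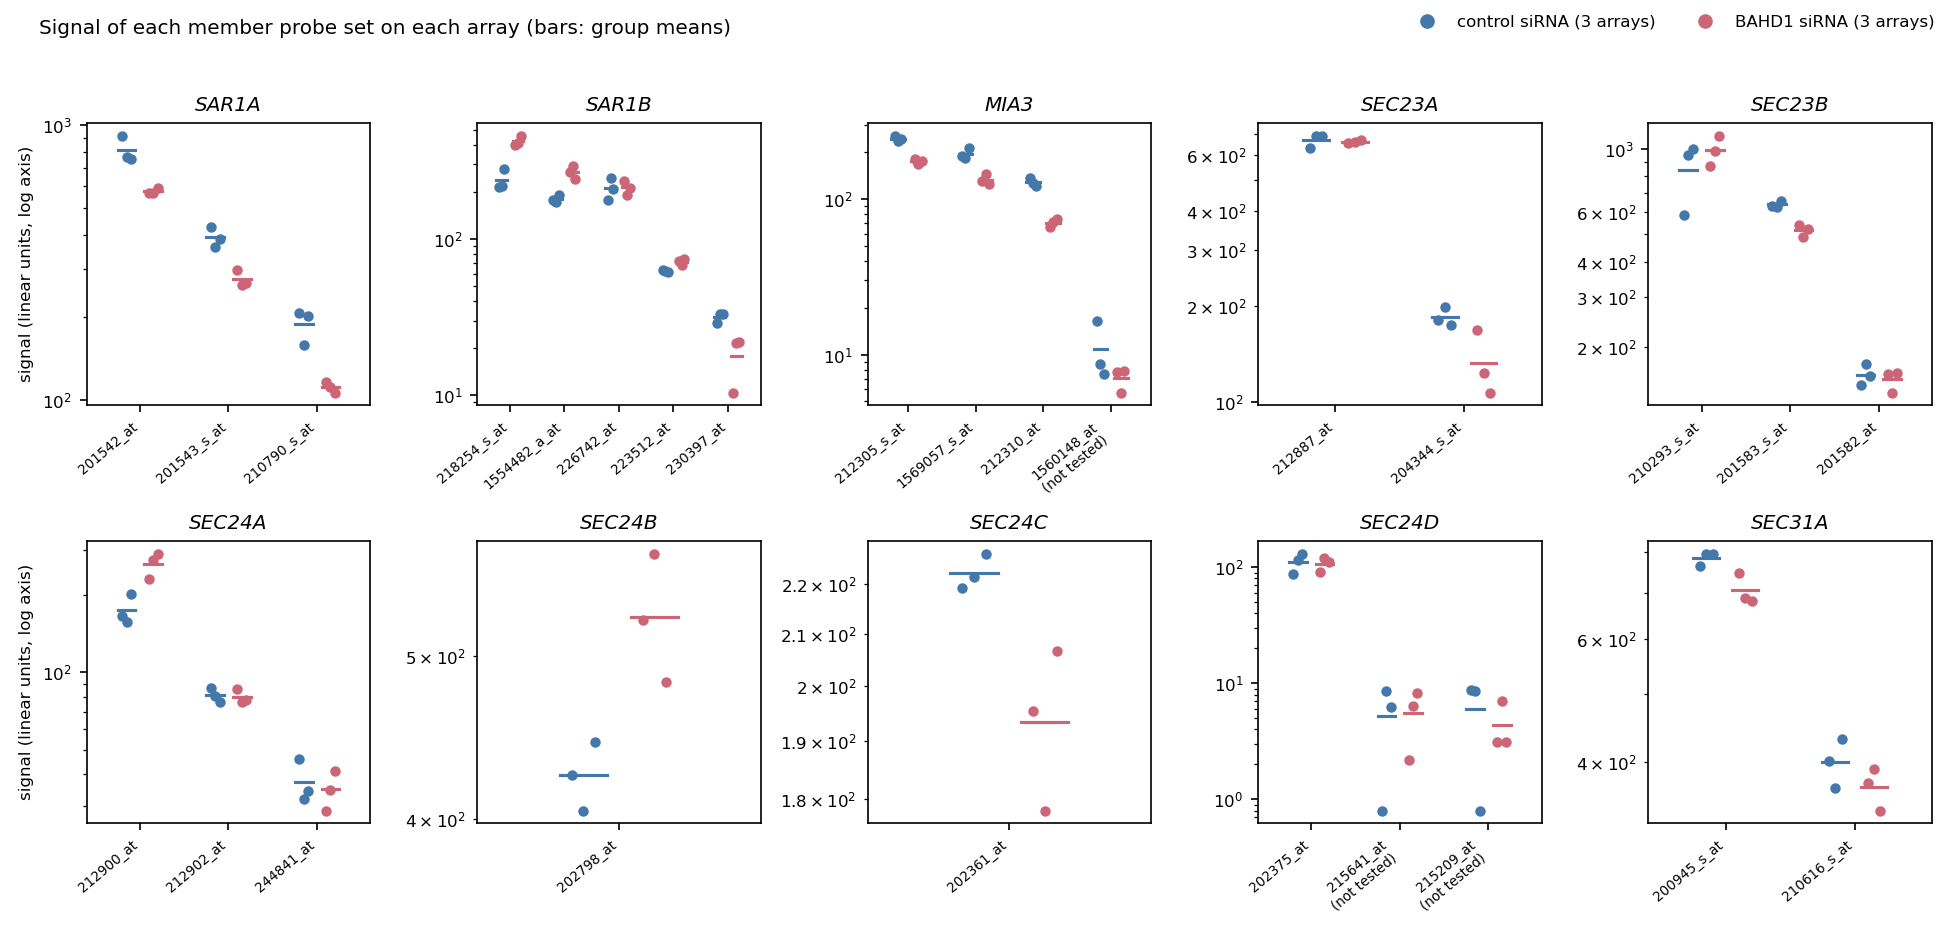
Signal of each of the 27 member probe sets on each of the 6 arrays, in linear units on a log axis, 1 panel per gene with its own scale. Points are arrays and bars are group means. The 3 SAR1A probe sets lie lower in BAHD1 siRNA arrays without overlap, whereas 218254_s_at and 1554482_a_at of SAR1B lie higher without overlap.

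Of the GTPase pair, SAR1A was lower in BAHD1 siRNA cells in all 3 of its probe sets. Probe set 201542_at gave signals of 913.5, 767.2 and 752.8 in control arrays and 568.5, 565.9 and 591.2 in BAHD1 siRNA arrays. Every BAHD1 siRNA array lay below every control array, and the BAHD1 siRNA values were closer together than the control values. The log2 fold change was -0.49 ± 0.08 (SE, 3 arrays per group), or 71.2% of the control level (limma, adjusted p = 0.0101). Probe set 201543_s_at gave 425.9, 361.0 and 384.5 in control and 296.3, 261.3 and 266.9 in BAHD1 siRNA arrays, a fall to 70.5% of control (-0.50 ± 0.09). Probe set 210790_s_at gave 207.6, 159.2 and 201.6 against 115.9, 111.6 and 106.5, a fall to 59.3% (-0.75 ± 0.12). The groups were separate in both. The suffix _s marks probe sets whose probes can match several transcripts. The fall was present in 201542_at, which does not carry it.

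SAR1B differed between its own 5 probe sets. Probe set 218254_s_at gave signals of 216.5, 217.4 and 282.0 in control arrays and 397.7, 414.3 and 456.2 in BAHD1 siRNA arrays. All BAHD1 siRNA arrays were above all control arrays, and the rise was to 178% of the control level (0.83 ± 0.11, SE, 3 arrays per group; limma, adjusted p = 0.00396). This was the smallest p among the members. Probe set 1554482_a_at rose to 148% of control (0.56 ± 0.10), from 178.2, 172.8 and 190.5 to 267.5, 291.3 and 243.7, again without overlap. The suffix _a marks a probe set that matches several transcripts of the same gene. Of the SAR1B probe sets that rose, 218254_s_at thus carries _s and 1554482_a_at carries _a. None of the 3 without either suffix was called. Matching to transcripts of other genes was not tested.

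The other 3 SAR1B probe sets were not called. Probe set 226742_at gave 177.9, 244.7 and 209.4 in control and 236.2, 192.2 and 213.5 in BAHD1 siRNA arrays, with overlapping groups and a log2 fold change of 0.03 ± 0.12. Its sign turned when array medians were centred or arrays were weighted. Probe set 223512_at gave 63.5, 62.8 and 61.7 against 71.9, 68.2 and 74.0, a small separation of 0.18 ± 0.14. The dimmest, 230397_at, lay the other way, with 28.9, 33.3 and 32.9 against 10.4, 21.5 and 21.8. Its groups did not overlap, but the spread of the BAHD1 siRNA arrays was wide, and the log2 fold change of -0.86 ± 0.33 did not pass (limma, adjusted p = 0.161). SAR1B probe sets thus spanned 1.69 on the log2 scale, from -0.86 to 0.83, the widest span of any member, against 0.26 for SAR1A.

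The difference between the paralogues was set out within each array, so that a factor common to an array drops out. With the brightest tested probe set of each gene, the log2 difference of SAR1A minus SAR1B was 2.07, 1.81 and 1.41 in control arrays and 0.51, 0.45 and 0.37 in BAHD1 siRNA arrays. It lay lower in every BAHD1 siRNA array than in any control array, and the change was -1.32 ± 0.20 (SE from the spread between arrays, n = 3 per group). With the mean of all tested probe sets of each gene, where the uncalled SAR1B probe sets count equally, the change was -0.73 ± 0.15, again with no overlap. These differences compare changes, since the signals of different probe sets have no common scale of level.

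MIA3, the procollagen export receptor, fell in its 3 tested probe sets. Probe set 212310_at gave signals of 137.0, 127.8 and 121.7 in control arrays and 65.8, 71.0 and 74.8 in BAHD1 siRNA arrays. The groups were far apart relative to their spread, and the level was 55.1% of control (-0.86 ± 0.13, SE, 3 arrays per group; limma, adjusted p = 0.00601). No tested member probe set had a lower log2 fold change.

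Probe set 1569057_s_at of MIA3 gave 190.3, 183.5 and 213.3 against 130.9, 144.6 and 124.5, or 68.3% of control (-0.55 ± 0.11). Probe set 212305_s_at gave 254.8, 238.2 and 243.3 against 181.8, 168.8 and 176.9, or 71.8% of control (-0.48 ± 0.09). Neither had overlapping groups. The fourth, 1560148_at, was not tested, as all its signals were under the filter, at 16.5, 8.7 and 7.5 in control and 7.7, 5.7 and 7.8 in BAHD1 siRNA arrays. MIA3 and SAR1A were the members whose tested probe sets all fell.

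**Figure D2:**
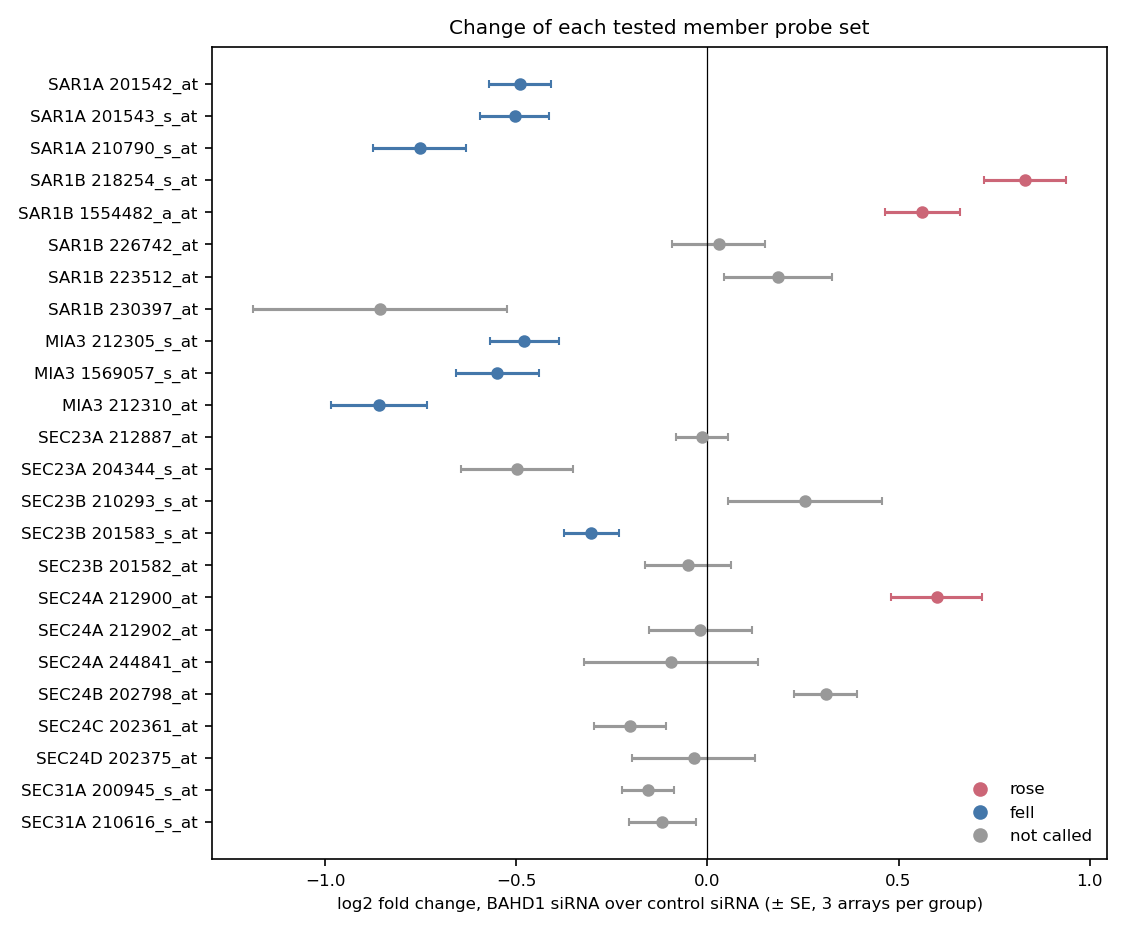
Log2 fold change of BAHD1 siRNA over control siRNA with its SE for the 24 tested member probe sets, 3 arrays per group, coloured by whether the probe set rose, fell or was not called. SAR1A and MIA3 lie between -0.86 and -0.48, and SAR1B runs from -0.86 to 0.83.

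The SEC23 paralogues, the GTPase-activating subunits of the inner coat, gave mixed readings. The brighter probe set of SEC23A, 212887_at, gave 628.7, 685.7 and 687.7 in control and 654.4, 657.8 and 669.0 in BAHD1 siRNA arrays. The groups overlapped, and the log2 fold change of -0.01 ± 0.07 changed sign under quantile normalisation. The dimmer one, 204344_s_at, gave 181.5, 198.9 and 174.8 against 168.7, 123.3 and 107.0, lower without overlap but with 1 BAHD1 siRNA array near the control values. Its log2 fold change was -0.50 ± 0.15 and did not pass (limma, adjusted p = 0.0743), although it passed in 4 of the 8 other ways of processing.

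SEC23B fell in 1 of 3 probe sets. Probe set 201583_s_at gave 629.5, 623.8 and 656.3 in control and 537.1, 488.6 and 521.7 in BAHD1 siRNA arrays, or 81.0% of control (-0.30 ± 0.07), and it too carries the suffix _s. The call ended when dim probe sets were kept in the test (limma, adjusted p = 0.0775), and it held in 1 of 6 fits with an array left out. The brightest, 210293_s_at, gave 584.2, 953.5 and 1000.4 against 868.3, 984.5 and 1111.8. The first control array stood well below the rest, the groups overlapped, and the log2 fold change of 0.26 ± 0.20 was 0.01 without that array. Probe set 201582_at had 146.1, 173.1 and 156.8 against 160.3, 137.5 and 161.9, with overlap (-0.05 ± 0.11). Within arrays, SEC23A minus SEC23B by the brightest probe sets differed between groups by -0.27 ± 0.23 with overlapping values, so the pair did not separate beyond its spread.

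The SEC24 cargo adaptors are commonly grouped by sequence into SEC24A with SEC24B and SEC24C with SEC24D. SEC24A rose in its brightest probe set, 212900_at, from 165.3, 156.5 and 202.8 to 231.7, 274.5 and 289.3. All BAHD1 siRNA arrays were above the controls, at 152% of the control level (0.60 ± 0.12, SE, 3 arrays per group; limma, adjusted p = 0.0178). The other probe sets of SEC24A overlapped between groups: 212902_at had 86.6, 81.2 and 76.4 against 86.2, 76.7 and 78.2 (-0.02 ± 0.13), and 244841_at had log2 fold change -0.09 ± 0.23. SEC24A and SAR1B are next to each other among protein-coding genes on chromosome 5. Of the SEC24A probe sets 1 of 3 rose, and of the SAR1B probe sets 2 of 5, while the others were not called.

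SEC24B was read by 1 probe set, with 424.8, 404.6 and 444.2 in control and 524.9, 574.6 and 482.7 in BAHD1 siRNA arrays. The groups did not overlap, and the level was 124% of control (0.31 ± 0.08), just short of the threshold. It passed under 4 of the 8 other ways of processing. The difference of SEC24A minus SEC24B changed by 0.29 ± 0.15 between groups with the brightest probe sets and by -0.15 ± 0.13 with the mean of all tested ones, so that its sign rests on the choice of probe set, and the groups overlapped both times.

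SEC24C was slightly lower, at 219.2, 221.3 and 226.2 in control against 195.4, 178.0 and 206.6 in BAHD1 siRNA arrays. The groups did not overlap, yet the log2 fold change of -0.20 ± 0.09 did not pass (limma, adjusted p = 0.242). SEC24D gave 86.8, 115.5 and 129.9 against 90.4, 120.1 and 111.3 in its tested probe set, with full overlap (-0.04 ± 0.16). Its remaining probe sets, 215641_at and 215209_at, were between 0.8 and 8.7 on all arrays and were not tested. SEC24C minus SEC24D differed between groups by -0.17 ± 0.22, within the spread.

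**Figure D3:**
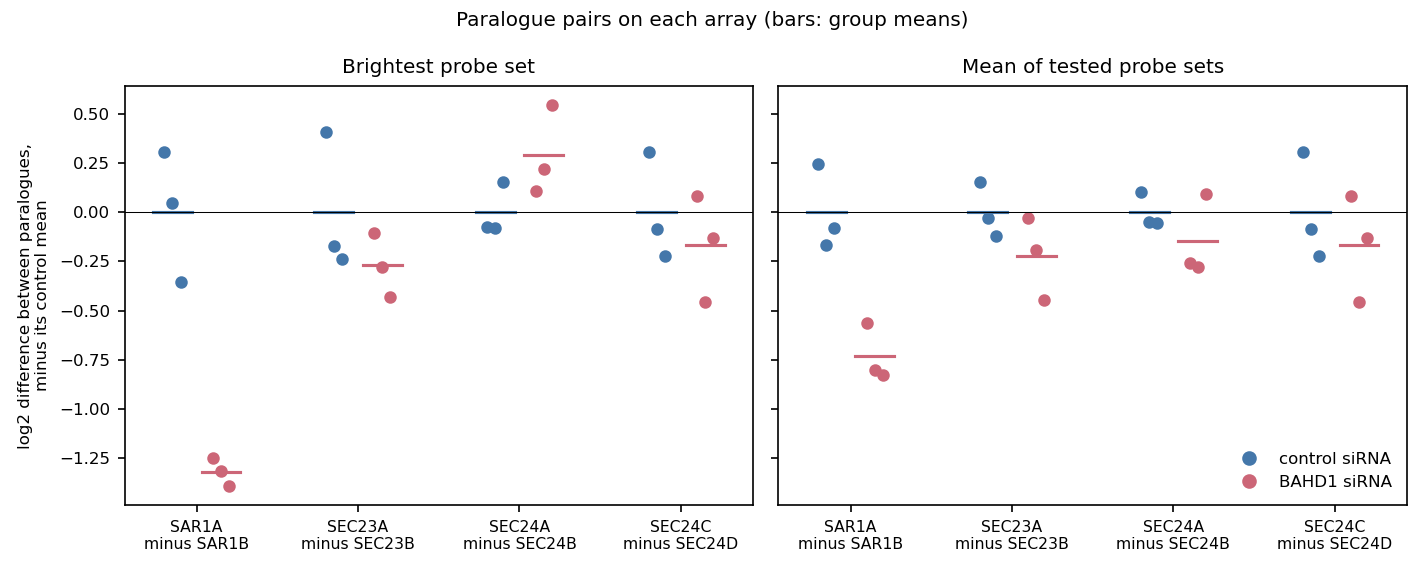
Log2 difference between paralogues within each array, after subtracting its mean over the 3 control arrays, for the brightest tested probe set of each gene (left) and the mean of all tested probe sets (right). Points are arrays and bars are group means. Only SAR1A minus SAR1B has no overlap between groups in both panels, and SEC24A minus SEC24B changes sign between the panels.

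SEC31A, the outer cage subunit, had 2 probe sets that were a little lower and not called. Probe set 200945_s_at gave 765.3, 795.3 and 795.5 in control and 747.5, 687.0 and 681.7 in BAHD1 siRNA arrays, with no overlap (-0.16 ± 0.07). Probe set 210616_s_at gave 401.2, 366.3 and 431.0 against 373.0, 390.4 and 340.0, with overlap (-0.12 ± 0.09). SEC31A probe sets differed by only 0.04 in log2 fold change, the smallest span among members with more than 1 tested probe set. Over all members, the SD of log2 signals among the 3 control arrays ran from 0.02 (SAR1B, 223512_at) to 0.43 (SEC23B, 210293_s_at), with a median of 0.11 against 0.16 for all tested probe sets.

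The calls rested on the arrays used. With 1 array left out, 4 of the 10 called member probe sets passed in all 6 fits: 201542_at and 210790_s_at of SAR1A, 218254_s_at of SAR1B and 212310_at of MIA3. The other 6 passed in fewer of them, from 1 (201583_s_at of SEC23B) and 2 (212900_at of SEC24A) to 5 (1554482_a_at of SAR1B). In all, 5 member probe sets were called when control replicate 1 was left out, and likewise 5 when the second or the third BAHD1 siRNA array was. The same 3 fits called 295, 186 and 177 of the 27458 probe sets. Leaving out an array moved the log2 fold change of 201542_at between -0.54 and -0.40, that of 218254_s_at between 0.77 and 0.96 and that of 212310_at between -0.90 and -0.81. Centring the array medians moved the median of all tested probe sets by -0.14 and gave 192 rises and 1515 falls over the whole table, against 596 and 625 without it. All 10 member calls were kept there, and 204344_s_at of SEC23A was called as well.

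Around the members, 89 further genes of the early secretory pathway and its collagen cargo were followed in 8 lists, each gene by its brightest tested probe set. Of the 82 tested, 4 rose, 5 fell and 73 were not called, and the fit with a single prior called 0. Over all 12529 genes tested by their brightest probe set 3.06% rose and 2.46% fell. With the probe set of smallest p in place of the brightest, 13 genes were called. That choice can only raise a count, and its share over all genes was not computed. The 8 further probe sets called in these lists, in 7 genes, all fell. Of all tested probe sets 2.17% rose and 2.28% fell. By the brightest probe sets, 32 of the 82 were higher and 50 lower, with a median log2 fold change of -0.05 against 0.02 for all genes. Of all tested genes 6816 were higher and 5713 lower. The count of 9 called genes was 2, 0 and 5 without control replicates 1, 2 and 3. It was 6, 1 and 0 without BAHD1 siRNA replicates 1, 2 and 3.

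None of the 8 tested partners of the coat at the exit site was called. SEC13, the partner of SEC31A in the cage, gave 1054.4, 1037.4 and 956.5 in control and 886.0, 719.8 and 881.8 in BAHD1 siRNA arrays. Its values were lower without overlap, and the log2 fold change of -0.30 ± 0.09 did not pass (limma, adjusted p = 0.0661). SEC31B, the paralogue of SEC31A, gave 42.7, 35.4 and 40.4 in control against 9.1, 32.4 and 7.4 in BAHD1 siRNA arrays. These dim values did not overlap and partly lay under the filter signal. Their log2 fold change of -1.51 ± 0.44 did not pass (limma, adjusted p = 0.0736). Among 9 genes of large-cargo export, 1 fell. This was KLHL12, an adaptor of the CUL3 ubiquitin ligase that modifies SEC31A, with 761.3, 807.9 and 774.5 in control against 606.5, 633.7 and 609.1 in BAHD1 siRNA arrays (-0.34 ± 0.07). Its other probe set was called too, at -0.60. MIA2, the relative of MIA3 at exit sites, was not called, at 0.45 ± 0.19.

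Of 17 cargo receptors 1 rose, CNIH1, a cornichon family cargo receptor, by 0.30 ± 0.07, with its other probe set at -0.13. Dimmer probe sets of 3 other receptors fell: those of TMED2 at -0.57 ± 0.07 and -0.40 ± 0.08, 1 of TMED4 at -0.50 ± 0.10 and 1 of LMAN1 at -0.53 ± 0.13. The brightest probe sets of these genes were not called. The median of the list was -0.04. Of 9 tethering and fusion genes none was called, and BET1, a SNARE of this step, had 0.25 ± 0.07. In the COPI coat, which carries material back from the Golgi, 9 of 11 genes were lower, against 5713 of all 12529 tested genes. The median of this list was -0.23. COPA fell by 0.33 (SE 0.07), with a second probe set also called at -0.35, and COPG1 fell by 0.39 (SE 0.10).

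Among 13 genes of collagen folding and modification, P4HB, the disulfide isomerase that is also a subunit of prolyl hydroxylase, fell by 0.29 (SE 0.06). A second probe set of P4HB was called at -0.32, and the third was at -0.17. PLOD3, a lysyl hydroxylase, rose by 0.38 ± 0.09. The other 11 genes were not called, although a dimmer probe set of PPIB, a prolyl isomerase, fell by 0.29. Of 10 collagen chain genes, COL6A1 and COL2A1 rose by 0.41 and 0.34 and COL3A1 fell by 0.76. The other tested probe sets of COL6A1 ran from -0.02 to 0.86, and that of COL2A1 was at -0.08. Those of COL3A1 ran from -0.91 to -0.69. None of these further probe sets was called. None of the 5 regulators was called, and CREB3L2, a transcription factor known to act on SEC23A, had -0.27 ± 0.09.

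**Figure D4:**
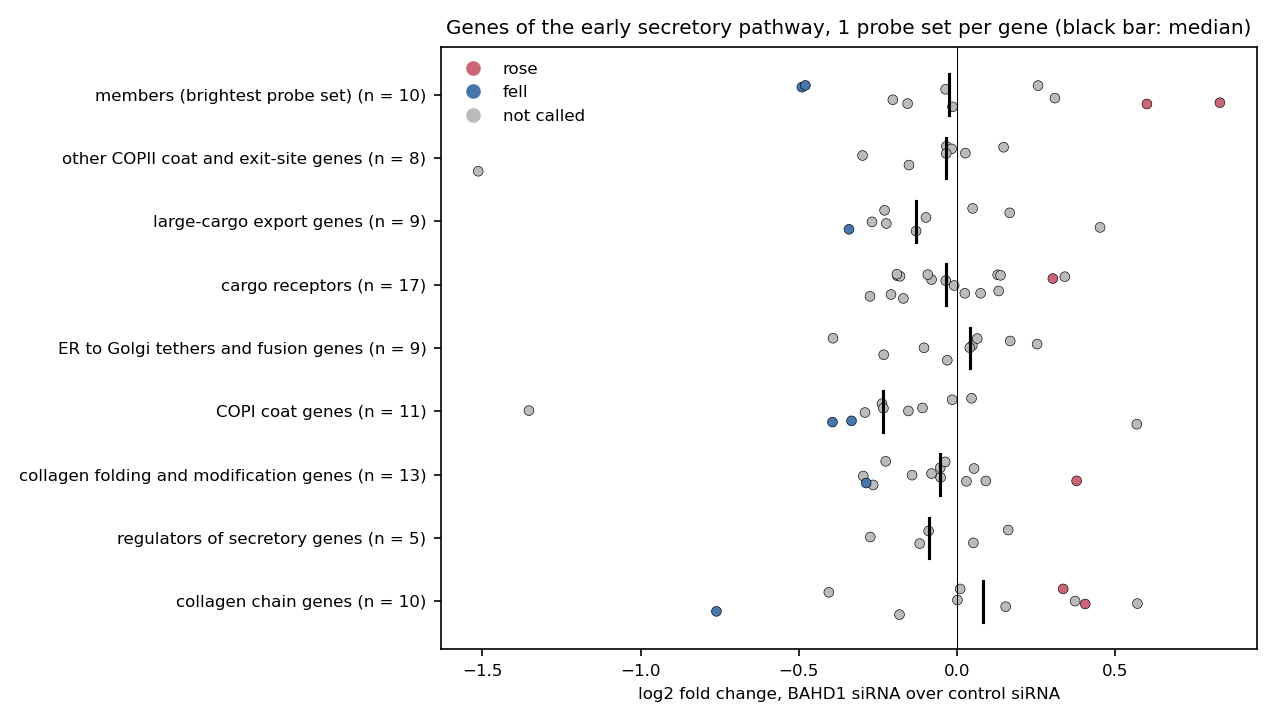
Log2 fold change of BAHD1 siRNA over control siRNA for the 10 members and for the tested genes of 8 lists, 1 point per gene (brightest tested probe set), coloured by call, with the median of each list as a black bar. The members reach from -0.49 to 0.83, and the COPI list has a median of -0.23.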

How the data were processed

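Total RNA of 6 HEK293 samples was labelled with biotin and hybridised to 1 array each. Intensity values were deposited by the authors as 1 linear signal per probe set and array. Per the submitters' processing notes GCOS and GCRMA were used, with roles not given in the sources used here. Trimmed by 2% at both ends, the signals of each array averaged 100.0, as scaled GCOS signals do. Arrays were grouped by their titles. The 62 control probe sets were left out, and log2(signal + 1) was fitted in R 4.3.3 with limma 3.58.1 (eBayes with trend and robust prior, no covariates), with Benjamini-Hochberg adjustment over 27458 probe sets and a threshold of 0.05. Fold changes of dim probe sets are shrunk by the added 1, and detection calls were not used. The prior that follows the signal was taken because the spread depends on the signal. This choice, the members, the lists and the alternatives were made with earlier results of these data known. All members and their probe sets are named. Of each list, the called genes are named, or the gene with the smallest p where none was called. SEC31B, MIA2, TMED2, TMED4, LMAN1 and PPIB were added after their values were seen. Symbols come from the platform annotation and were checked against RefSeq genes of GRCh38.p14. Promoter windows were taken from RefSeq (9 of 10 members matched). The script of the fit was tested on simulated data, and no value from that step is used here. The number of arrays limits the precision. The limma p-values rest on the spread between these arrays together with a prior drawn from all tested probe sets. Alternatives were a single prior without robust estimation, other filters, normalisations, pseudocounts and probe set choices, array weights, a replicate block and leaving out each array.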

Additional observations from a re-analysis of the deposited data

How the results depend on the processing

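With a single variance prior and no robust estimation, 0 probe sets, 0 members and 0 other pathway genes were called. Without a filter on dim probe sets 398 probe sets and 2 other pathway genes were called, and with array medians centred 15 other pathway genes. The cause of these changes was not tested. With 1 array left out, the calls over the whole table ran from 177 to 1174, those of members from 5 to 11 and those of other pathway genes from 0 to 6. The BAHD1 log2 fold change ran from -0.51 to -0.30. The paralogue differences ran from -1.50 to -1.17 for SAR1A minus SAR1B, -0.39 to -0.07 for SEC23A minus SEC23B, 0.16 to 0.38 for SEC24A minus SEC24B and -0.29 to -0.01 for SEC24C minus SEC24D. With the mean of tested probe sets, SAR1A minus SAR1B was -0.73 and SEC24A minus SEC24B -0.15. Of 188 values of single member probe sets under the other alternatives, 169 kept their side of the threshold, 11 lost and 8 gained a call. Arrays with the same replicate number hardly deviated together (r = 0.010, 0.010 and 0.024 over all tested probe sets). The labels do not state a pairing, and these values cannot exclude it for part of the probe sets. With the replicate block 1629 probe sets and 11 member probe sets were called, against 1221 and 10 without it. Signals near the filter of 17.9, as in 230397_at of SAR1B, limit what the dim probe sets can show.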
